A study of Mus musculus with 12 samples.

Results

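The effect of an antibody against PD-1 was measured in mouse glioblastoma masses as the difference between the 6 arrays of animals that received the antibody and the 6 arrays of animals that did not, out of 12 arrays in all. Temozolomide (TMZ), an alkylating agent used against glioma, was a balanced second factor, given to 3 arrays on either side. GL261 cells, an established mouse glioma line, had been implanted into the brains of male C57BL/6 mice aged 8 weeks, and the masses were taken on day 16 for whole-transcript Affymetrix arrays of total RNA. The 4 groups of 3 arrays were Combination (antibody and TMZ), Anti-PD-1 (antibody alone), TMZ (TMZ alone) and Control (neither). Per the labels, the antibody was given into a vein at 10 mg/kg with 2 injections per week, and TMZ into the peritoneum at 30 mg/kg. The labels give neither the dosing days, nor what Control animals received, nor how much brain a mass held, nor whether each array came from a separate animal, so the p-values below measure the spread between these arrays.

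PD-1, encoded by Pdcd1, is an inhibitory receptor of activated T cells, and its ligands are encoded by Cd274 and Pdcd1lg2. Ligand binding dampens signalling from the T cell receptor, and blocking antibodies release that brake. Activated T cells and natural killer cells then secrete interferon gamma, which induces antigen presentation genes, chemokines, guanylate binding proteins and Cd274 itself in tumour cells and macrophages. In gliomas much of the immune infiltrate consists of microglia and blood-derived macrophages, and T cells are usually scarce.

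All values are log2 signals, and a difference of 1 means a doubling. The main effect is the mean of 2 differences that share no array, Combination minus TMZ (TMZ present) and Anti-PD-1 minus Control (TMZ absent), and the interaction is the first of these less the second. One gene was represented by 1 probe set, which gave 22180 genes from 41345 probe sets. Before any test, Control replicates 1 and 2 stood apart from the other 10 arrays: on the first principal component, which held 26.6% of the variance, they lay at -20.1 and -26.4, Control replicate 3 lay at -1.28, and the 9 treated arrays lay between -4.10 and 13.9. The counts of calls, the main effect medians of the lists and the main effects of many of the genes in which they were highest are therefore also given without them. Where a gene's value is given only with all arrays, how far it rests on these 2 arrays is not shown. On the third component (9.81% of the variance) TMZ replicate 2 lay at 20.9 and all other arrays between -8.35 and 3.35. Gene values and list medians of Combination minus TMZ are not given without TMZ replicate 2, so how far they rest on it is not shown. The table holds no detection calls, so whether a cell type's markers were absent could not be read from it.

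Averaged over both TMZ states, the antibody was followed by no gene difference past the threshold. Limma called 0 of 22180 genes at an adjusted p under 0.05 (0%), 0 higher and 0 lower, and the smallest adjusted p was 0.379. An unadjusted p under 0.05 was reached by 1991 genes (8.98%), of which 939 were higher (4.23%) and 1052 lower (4.74%) in the antibody arrays. The additive model without an interaction term and the fit with the replicate number as a block also called 0 genes. The median absolute difference was 0.06 log2 over all genes, and 3 genes differed by more than 1 (0.0135%): Bst2, Gpnmb and Moxd1, all lower with the antibody and described further on. In 80 genes (0.361%) all 6 antibody arrays lay on 1 side of the 6 other arrays, above them in 44 (0.198%) and below them in 36 (0.162%). Of these 80 genes, 26.2% were predicted genes, clones, olfactory receptors, small RNA genes and similar classes, against 22.3% of all genes.

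Among the genes with the smallest p and the same sign at both TMZ states, the smallest p on the higher side belonged to Wfikkn2, which encodes a secreted inhibitor that binds myostatin. Wfikkn2 (probe set 17267815) read 5.04, 4.66 and 4.70 in Combination arrays and 5.08, 5.10 and 4.86 in Anti-PD-1 arrays, against 4.47, 4.36 and 4.40 in TMZ arrays and 4.56, 4.46 and 4.65 in Control arrays. All 6 antibody arrays lay above all 6 others, although Combination replicate 2 exceeded Control replicate 3 by little. The main effect was 0.42 ± 0.07 log2 (SE, limma, adjusted p = 0.379), 1.34-fold higher with the antibody, and it missed the threshold. The difference was close at both TMZ states, 0.39 for Combination minus TMZ and 0.45 for Anti-PD-1 minus Control. Zfp938, a zinc finger gene, was the other named gene whose antibody arrays all lay above the rest, at 7.30 to 7.45 (median 7.36) with the antibody, against 6.96 to 7.23 (median 7.15) without it (difference 0.24 ± 0.05 SE).

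The remaining 8 genes named on the higher side overlapped between the 2 sets of 6 arrays, and none passed the threshold (limma, adjusted p from 0.379 to 0.389). Of the protein-coding ones, the zinc finger genes Zfp932 and Zfp182 were higher by 0.46 and 0.33. Acvr2a, a receptor for activin and myostatin, was higher by 0.22, Mmaa, which acts in mitochondrial cobalamin metabolism, by 0.20, and Spata31d1b, of a testis-expressed family, by 0.35. Acvr2a read 8.08, 8.03 and 8.00 in Combination and 8.17, 8.24 and 8.18 in Anti-PD-1 arrays, against 7.93, 8.03 and 8.02 in TMZ and 7.71, 7.79 and 7.93 in Control arrays. Its Anti-PD-1 arrays thus lay above all Control arrays, whereas its Combination and TMZ arrays overlapped (differences 0.39 and 0.05). The noncoding transcripts Cep112it, Pcsk2os1 and Nrg3os were higher by 0.27, 0.32 and 0.37, and in Nrg3os the difference was 0.37 with TMZ and 0.38 without it.

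**Figure D1:**
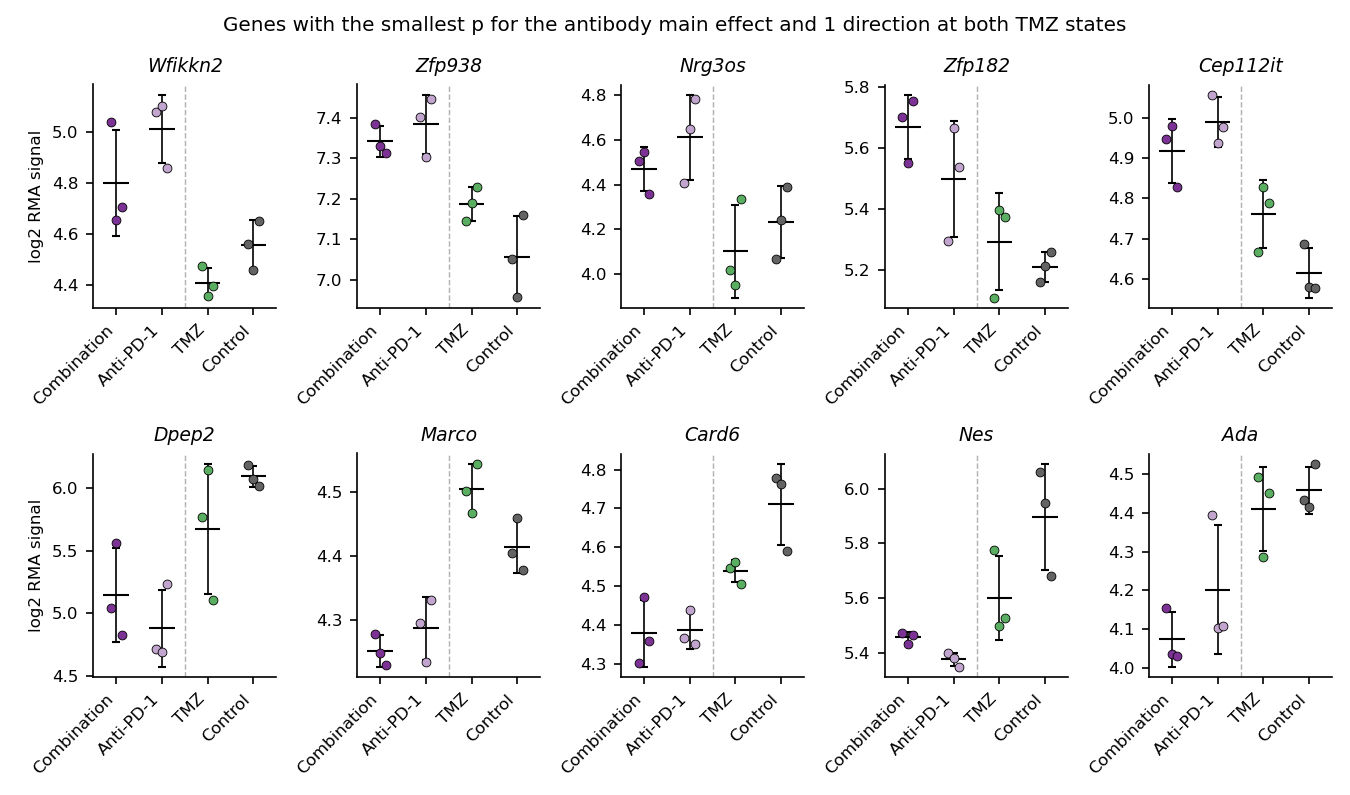
Log2 signal (y axis) of 10 of the genes named for the antibody main effect, by group, with 1 point per array and the mean and SD of each group of 3 arrays; a dashed line parts the antibody groups at the left from the groups without it at the right. In the upper row the antibody arrays sit higher and in the lower row they sit lower; the 2 sets of 6 arrays do not overlap in Wfikkn2, Zfp938, Marco, Card6 and Nes.

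On the lower side, Dpep2 had the largest difference of the 10 named genes. It encodes a membrane dipeptidase that cleaves leukotrienes. Dpep2 (probe set 17512628) read 5.04, 5.56 and 4.83 in Combination and 4.71, 4.70 and 5.23 in Anti-PD-1 arrays, against 5.77, 6.14 and 5.11 in TMZ and 6.19, 6.08 and 6.02 in Control arrays. Only TMZ replicate 3 fell within the range of the antibody arrays. The main effect was -0.87 ± 0.18 log2 (SE, limma, adjusted p = 0.389), 1.83-fold lower with the antibody, with -0.53 at the TMZ-treated state and -1.21 at the other.

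The 2 sets of arrays did not overlap in Marco, Card6 and Nes, nor in Cdkn1a of the genes always reported. Marco, a scavenger receptor of macrophages, ranged from 4.23 to 4.33 (median 4.26) with the antibody and from 4.38 to 4.54 (median 4.46) without it. Its difference of -0.19 ± 0.04 was at least as large with TMZ (-0.25) as without it (-0.13). Card6, a caspase recruitment domain gene, ranged from 4.30 to 4.47 with the antibody and from 4.51 to 4.78 without it (-0.24 ± 0.05). Nes, which encodes the progenitor filament nestin, read 5.47, 5.43 and 5.47 in Combination and 5.40, 5.38 and 5.35 in Anti-PD-1 arrays, against 5.78, 5.50 and 5.53 in TMZ and 6.06, 5.95 and 5.68 in Control arrays. Control replicates 1 and 2 were the highest of the 12, and TMZ replicate 2 lay just above the antibody arrays. The difference of Nes was -0.33 ± 0.07, and -0.22 without Control replicates 1 and 2. Cdkn1a, the p53-induced inhibitor of cyclin-dependent kinases, read 7.53, 7.56 and 7.54 in Combination and 7.49, 7.67 and 7.48 in Anti-PD-1 arrays, against 7.70, 7.90 and 7.72 in TMZ and 8.04, 8.27 and 7.70 in Control arrays. Its difference was -0.34 ± 0.09 (SE, limma, adjusted p = 0.389), -0.23 with TMZ and -0.46 without it, and -0.19 without Control replicates 1 and 2.

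Ada, which encodes adenosine deaminase, differed alike at both TMZ states, by -0.34 with TMZ and -0.26 without it. It ranged from 4.03 to 4.40 (median 4.11) with the antibody and from 4.29 to 4.53 (median 4.44) without it, and the overlap came from Anti-PD-1 replicate 1 alone. Cyp3a57, of a drug-metabolising enzyme family, was likewise lower by 0.41 with TMZ and by 0.45 without it. The 4 cell cycle genes named on this side behaved otherwise. Ect2, which drives cytokinesis, Tacc3, a spindle protein, Cenpe, a kinetochore motor, and Cdc6, which licenses replication origins, differed by -0.71, -0.32, -0.41 and -0.26 on average. With TMZ present these differences were -0.04, -0.05, -0.06 and -0.12, and without TMZ -1.39, -0.60, -0.76 and -0.41. The main effects of Ect2, Tacc3, Cenpe and Cdc6 were -0.45, -0.22, -0.27 and -0.30 without Control replicates 1 and 2. All 10 genes named on the lower side missed the threshold (limma, adjusted p from 0.379 to 0.389).

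No main effect was detectable in the genes of PD-1 and its ligands. Pdcd1 (probe set 17225801) read 4.35, 4.23 and 4.61 in Combination and 4.10, 4.15 and 4.44 in Anti-PD-1 arrays, against 4.34, 3.86 and 4.50 in TMZ and 4.69, 4.23 and 4.59 in Control arrays. The ranges overlapped throughout, and the main effect was -0.06 with a 95% interval from -0.32 to 0.21. Cd274, the PD-1 ligand gene that interferon gamma induces, read 6.81, 6.73 and 7.38 in Combination and 5.88, 5.92 and 6.31 in Anti-PD-1 arrays, against 6.76, 5.95 and 6.71 in TMZ and 6.58, 7.05 and 6.23 in Control arrays. The 2 TMZ states had opposite signs: Combination exceeded TMZ by 0.50 and Anti-PD-1 lay 0.58 below Control. The main effect of Cd274 was -0.04 (95% interval -0.44 to 0.36), and the interaction of 1.08 ± 0.36 missed the threshold (limma, adjusted p = 0.405). Pdcd1lg2, the other ligand gene, differed by -0.11 (95% interval -0.30 to 0.07).

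Of the 25 PD-1 axis and checkpoint genes, 17 were below 0 and 8 above in the main effect (50.0% of all genes were below 0), with a median of -0.05 against 0.00 over all genes. An unadjusted p under 0.05 was reached by Lgals9 and Cd244a, 8.00% of the list against 8.98% of all genes. Lgals9 encodes galectin-9, a ligand of the checkpoint receptor TIM-3. It read 7.44, 7.55 and 7.61 in Combination and 7.01, 7.23 and 7.25 in Anti-PD-1 arrays, against 7.56, 7.22 and 7.25 in TMZ and 8.40, 8.83 and 7.73 in Control arrays. All 3 Control arrays were above the other 9, and the main effect of -0.48 ± 0.15 (adjusted p = 0.405) came with 0.19 at the TMZ-treated state and -1.16 at the other. The difference of Lgals9 was -0.19 and the list median 0.00 without Control replicates 1 and 2. Cd244a, a receptor of natural killer and T cells, differed by -0.26, and Cd27, a costimulatory receptor, by 0.22.

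No marker of T cells, the main carriers of PD-1, passed the threshold. In bulk RNA, fewer cells of a type and less RNA per cell cannot be told apart. Cd8a (probe set 17459482), which marks cytotoxic T cells, ranged from 4.12 to 4.42 (median 4.17) with the antibody and from 3.99 to 4.30 (median 4.17) without it. Its main effect was 0.08 with a 95% interval from -0.08 to 0.23, and its 2 medians were alike. Cd4, of helper T cells, differed by -0.04 (-0.25 to 0.16), and Foxp3, of regulatory T cells, by -0.19 (-0.46 to 0.07). The effector genes of cytotoxic lymphocytes gave -0.04 for Ifng (-0.17 to 0.08), -0.14 for the granzyme gene Gzmb (-0.50 to 0.21) and -0.07 for the perforin gene Prf1 (-0.22 to 0.09).

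Of 13 T cell markers, 11 were below 0 and the median was -0.04; of 14 cytotoxic lymphocyte markers, 8 were below 0 and the median was -0.04. None of the members of either list reached an unadjusted p under 0.05, against 8.98% of all genes. T cell scores, the mean of the markers after each was centred over the 12 arrays, ran from -0.03 to 0.00 in Combination and -0.07 to 0.00 in Anti-PD-1 arrays, against -0.09 to 0.05 in TMZ and 0.00 to 0.14 in Control arrays. Natural killer cell markers had a median of 0.04, with 6 of 7 above 0, led by Klrb1c at 0.21. With TMZ 6 of the 7 were above 0 (median 0.09), and without TMZ 5 were below 0 (median -0.01). These markers were dim, with a mean level of 3.46 log2 against a median gene mean of 5.72. The regulatory T cell list had 4 of 7 members above 0 and a median of 0.01. B cell and plasma cell lists had medians of 0.02 and -0.10, the widest member being the antibody joining chain gene Jchain at 0.35 ± 0.17. Without Control replicates 1 and 2 the sign turned for the cytotoxic lymphocyte median (0.08), the natural killer cell median (-0.01) and the regulatory T cell median (-0.04), and the T cell, B cell and plasma cell medians were -0.03, 0.01 and -0.08.

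**Figure D2:**
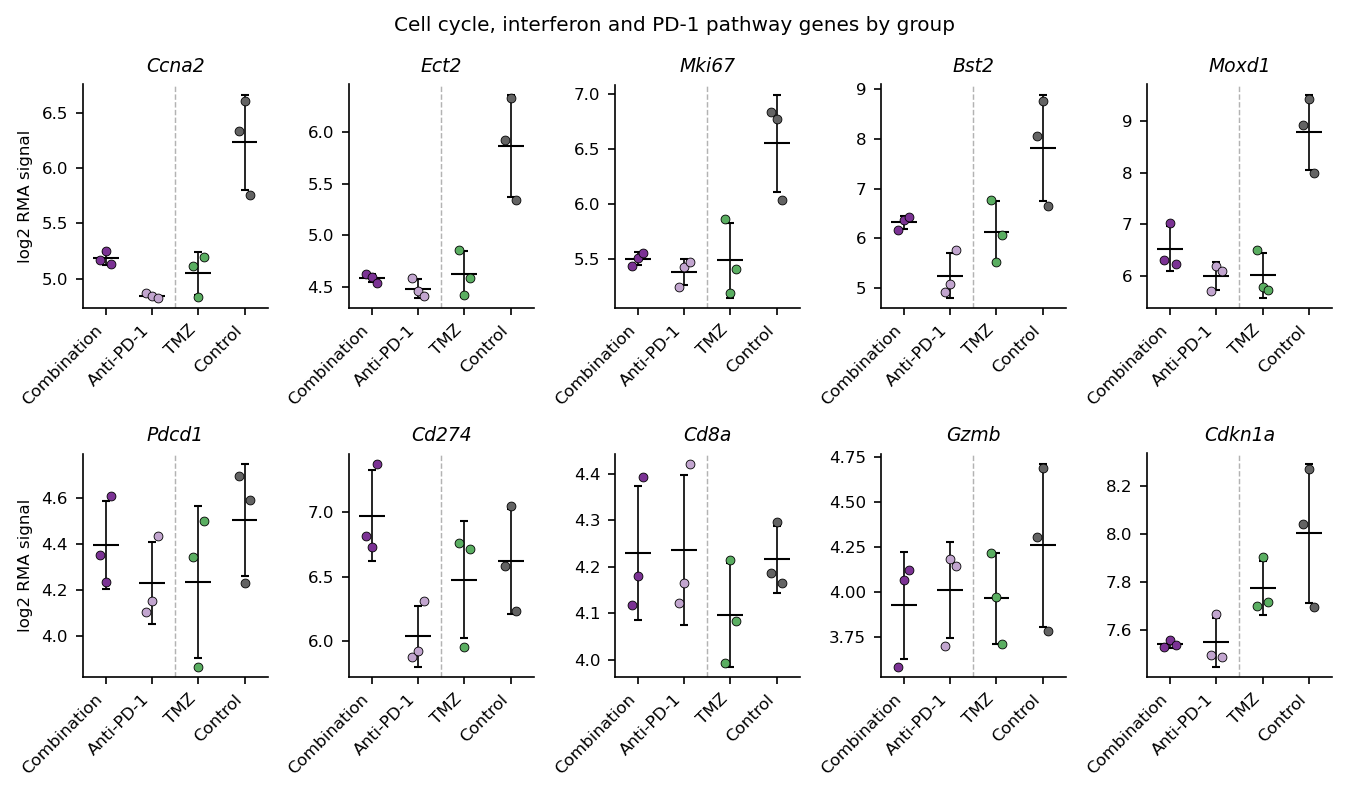
Log2 signal (y axis) of 10 genes of the cell cycle, the interferon response and the PD-1 pathway, by group, with 1 point per array and the mean and SD of each group of 3; a dashed line parts the antibody groups at the left from the groups without it. In Ccna2, Ect2 and Moxd1 the 3 Control arrays lie above the other 9, whereas the groups overlap in Pdcd1, Cd8a and Gzmb.

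Genes of the interferon gamma response were lower on average, with medians of opposite sign at the 2 TMZ states. Of 23 members 21 were below 0, and the median was -0.38, made of 0.16 for Combination minus TMZ and -0.94 for Anti-PD-1 minus Control; Gbp6 (0.14) and Nos2 (0.03), named after their values were seen, were above 0. An unadjusted p under 0.05 was reached by 8 members, all lower, 34.8% against 8.98% of all genes, and 0 passed the adjusted threshold. In Combination minus TMZ alone, 0 of the 23 had an unadjusted p under 0.05, against 4.19% of all genes. List scores were -0.06 to 0.26 in Combination arrays and 0.24, -0.40 and -0.14 in TMZ arrays, so these 2 groups overlapped. Gbp3, a guanylate binding protein that acts against intracellular microbes, read 5.77, 6.14 and 6.14 in Combination and 4.61, 4.85 and 5.52 in Anti-PD-1 arrays, against 6.15, 5.22 and 5.56 in TMZ and 6.87, 7.08 and 6.11 in Control arrays. Its Combination arrays lay within the range of the TMZ arrays and its Anti-PD-1 arrays below all Control arrays, and the differences were 0.37 and -1.69 (main effect -0.66 ± 0.21, and -0.37 without Control replicates 1 and 2). Irgm1, a related defence GTPase, gave 0.40 and -1.65, Irf8, a transcription factor of myeloid cells, -0.05 and -0.70, and Cxcl11, a chemokine of activated T cells, 0.00 and -0.60. The main effects of Irgm1, Irf8 and Cxcl11 were -0.63, -0.38 and -0.30. Without Control replicates 1 and 2 they were -0.21, -0.29 and -0.19.

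Type I interferon response genes, induced through a separate receptor that shares many targets with the first, were all lower on average. All 34 measured members were below 0 (median -0.31), and 21 of them, 61.8%, had an unadjusted p under 0.05, against 8.98% of all genes. At the TMZ-treated state 29 of the 34 were above 0 (median 0.15), as were 48.8% of all genes. The list scores of the 2 groups compared there overlapped, at -0.12 to 0.07 in Combination and -0.33 to 0.10 in TMZ arrays. At the other state all 34 were below 0 (median -0.73), as were 47.6% of all genes. Bst2 (probe set 17510345), which tethers budding virus particles to the cell, had the largest main effect of all genes. It read 6.17, 6.36 and 6.43 in Combination and 4.92, 5.08 and 5.76 in Anti-PD-1 arrays, against 6.77, 5.53 and 6.07 in TMZ and 8.05, 8.75 and 6.65 in Control arrays. Control replicates 1 and 2 stood far above the other 10 arrays, which included Control replicate 3. The main effect was -1.18 ± 0.32 (SE, limma, adjusted p = 0.398), 0.20 with TMZ and -2.56 without it, and it was -0.60 without Control replicates 1 and 2. Ifitm3, an antiviral membrane protein gene, Parp12 and Ifit1, which binds viral RNA, gave main effects of -0.86, -0.53 and -0.68, and of -0.48, -0.23 and -0.31 without Control replicates 1 and 2. Without these arrays the median of the type I list was -0.13 and that of the interferon gamma list -0.13.

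The start regions of these genes often held interferon response motifs. Windows from 250 bases before to 50 bases after the annotated start were taken from RefSeq on build GRCm38.p6 for 16990 of the 22180 genes and searched on both strands. The core of the interferon-stimulated response element (GAAA, any 2 bases, GAAA) was found in 13 of 24 type I members with a window (54.2%) and 8 of 14 interferon gamma members (57.1%), against 3.87% of all genes. The gamma-activated site (TTCNNNGAA) was found in 25.0% and 42.9% of these lists, against 9.15% of all genes. The 250 bases before the start are shown for Bst2, Ifit1, Gbp3 and Irgm1, the members named above that hold 2 copies of the core there, with the motif letters in capitals. In Bst2, Gbp3 and Irgm1 the copies overlap, and in Bst2 a gamma-activated site overlaps them. Bst2 is on the minus strand at chr8:71537473-71537722, Ifit1 on the plus strand at chr19:34640639-34640888, Gbp3 (the first of its 2 windows) on the plus strand at chr3:142559794-142560043 and Irgm1 on the minus strand at chr11:48871421-48871670. Ifitm3 and Parp12 held no match in the 250 bases before the start, and Cxcl11 had no window. In the whole window searched, Ifitm3 held 2 copies of the core and 1 gamma-activated site, and Parp12 held 0 of either. The first of the 2 windows of Irf8 held 2 gamma-activated sites and 0 copies of the core. A match describes the letters and is not evidence of binding.
Bst2: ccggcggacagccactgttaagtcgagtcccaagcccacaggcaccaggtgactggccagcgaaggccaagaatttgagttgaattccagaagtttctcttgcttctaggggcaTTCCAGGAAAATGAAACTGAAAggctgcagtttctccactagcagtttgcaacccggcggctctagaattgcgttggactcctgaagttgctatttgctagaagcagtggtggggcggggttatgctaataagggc
Ifit1: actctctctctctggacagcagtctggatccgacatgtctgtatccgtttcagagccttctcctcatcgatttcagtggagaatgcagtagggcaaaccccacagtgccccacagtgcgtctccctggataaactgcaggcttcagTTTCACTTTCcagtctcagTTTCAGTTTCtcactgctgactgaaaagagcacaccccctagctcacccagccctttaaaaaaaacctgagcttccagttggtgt
Gbp3: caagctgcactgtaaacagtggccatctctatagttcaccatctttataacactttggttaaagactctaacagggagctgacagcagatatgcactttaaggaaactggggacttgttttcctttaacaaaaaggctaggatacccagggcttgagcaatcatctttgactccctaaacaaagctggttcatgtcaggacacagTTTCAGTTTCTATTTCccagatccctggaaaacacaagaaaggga
Irgm1: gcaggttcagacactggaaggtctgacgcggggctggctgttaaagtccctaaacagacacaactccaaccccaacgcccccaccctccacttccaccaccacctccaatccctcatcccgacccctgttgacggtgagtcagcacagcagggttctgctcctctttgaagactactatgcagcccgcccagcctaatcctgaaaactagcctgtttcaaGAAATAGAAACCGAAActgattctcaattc

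**Figure D3:**
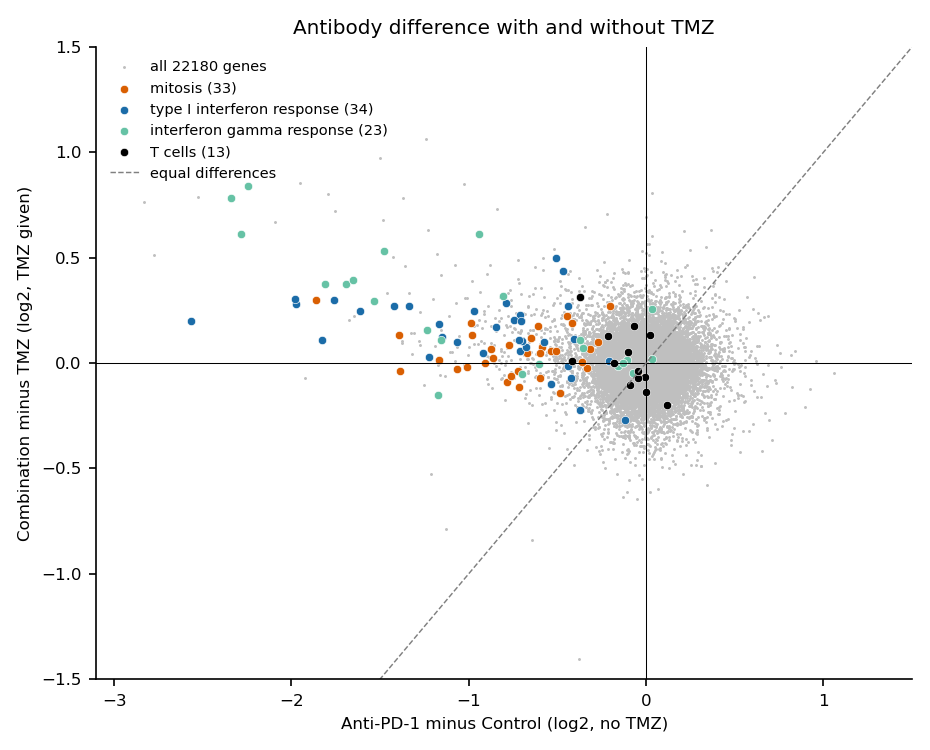
Antibody difference of each of 22180 genes with TMZ (Combination minus TMZ, log2, y axis) against that without TMZ (Anti-PD-1 minus Control, log2, x axis); coloured points are members of 4 lists and the dashed line marks equal differences. Interferon and mitosis genes stretch to the left, down to -2.56 for Bst2, while their values on the y axis stay near or above 0.

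Antigen presentation genes had the same pair of signs. MHC class I presentation genes had a median of -0.27 (14 of 16 below 0), 0.12 with TMZ and -0.68 without it. The 4 members with an unadjusted p under 0.05 (25.0%, against 8.98% of all genes) were the immunoproteasome genes Psmb8 (-0.50) and Psmb10 (-0.22), the proteasome activator Psme1 (-0.25) and the peptide transporter Tap1 (-0.45). Tap1 read 7.10, 7.14 and 7.46 in Combination and 6.25, 6.29 and 6.63 in Anti-PD-1 arrays, against 7.05, 6.44 and 6.82 in TMZ and 7.92, 8.33 and 7.01 in Control arrays. Its Combination arrays lay above all TMZ arrays, and its Anti-PD-1 arrays below all Control arrays; without Control replicates 1 and 2 its main effect was -0.08. MHC class II presentation genes had a median of -0.13 (9 of 11 below 0), 0.20 with TMZ and -0.46 without it. Class II scores were 0.05 to 0.28 in Combination arrays, against 0.26, -0.61 and -0.04 in TMZ arrays. H2-Aa, a class II chain gene, was 1 of only 2 genes that differed by more than 1 between Combination and TMZ (0.00902% of genes), at 1.07; the other was the hormone precursor gene Pomc. Both were named after their values were seen. Without Control replicates 1 and 2 the class I and class II medians were -0.03 and 0.02. Psmb8, Psmb10 and Psme1 were then at -0.13, -0.02 and -0.07.

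Of the myeloid gene lists, complement and scavenger, Fc gamma receptor, microglia and cytokine genes had medians above 0 with TMZ and below 0 without it. In each of these lists the ranges of the Combination and TMZ scores overlapped. TMZ replicate 2 had the lowest score of the TMZ arrays, at -0.31, -0.21, -0.25 and -0.13 in that order. Complement and scavenger genes had a median of -0.16 (16 of 18 below 0), 0.19 with TMZ and -0.61 without it, and 0.02 without Control replicates 1 and 2. Gpnmb, a membrane glycoprotein of lipid-laden and tumour-associated macrophages, read 6.32, 7.98 and 6.85 in Combination and 5.09, 5.82 and 5.75 in Anti-PD-1 arrays, against 7.23, 5.55 and 6.07 in TMZ and 8.54, 9.27 and 7.34 in Control arrays. Its main effect was -1.03 ± 0.39 (SE, limma, adjusted p = 0.471), 0.77 with TMZ and -2.83 without it, and it was -0.51 without Control replicates 1 and 2. Fc gamma receptors, which bind the constant part of antibodies, and their signalling genes had a median of -0.16, 0.17 with TMZ and -0.29 without it. Without Control replicates 1 and 2 this median turned to 0.03. Fcgr4 was at -0.40 ± 0.28, and its sign turned without these 2 arrays (0.07). Microglia markers had a median of -0.02, 0.15 with TMZ and -0.13 without it, and 0.02 without Control replicates 1 and 2, with P2ry12, the purine receptor of resting microglia, at 0.05 (95% interval -0.09 to 0.19), Crybb1 at -0.23 and Olfml3 at -0.17. Of 15 monocyte and macrophage markers 13 were below 0 (median -0.11), led by Plac8 (-0.31), and the median was lower at both states, at -0.07 with TMZ and -0.12 without it. Inflammatory cytokine and chemokine genes had a median of -0.09, 0.03 with TMZ and -0.19 without it, which turned to 0.01 without Control replicates 1 and 2. Ccl12 and Ccl2, which attract monocytes, were at -0.45 and -0.26, and at -0.23 and -0.19 without these 2 arrays. Neutrophil genes had a median of -0.03, -0.02 with TMZ and 0.01 without it, and dendritic cell genes -0.07, -0.02 with TMZ and -0.08 without it. The monocyte, neutrophil and dendritic cell medians were -0.07, 0.01 and -0.03 without Control replicates 1 and 2.

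**Figure D4:**
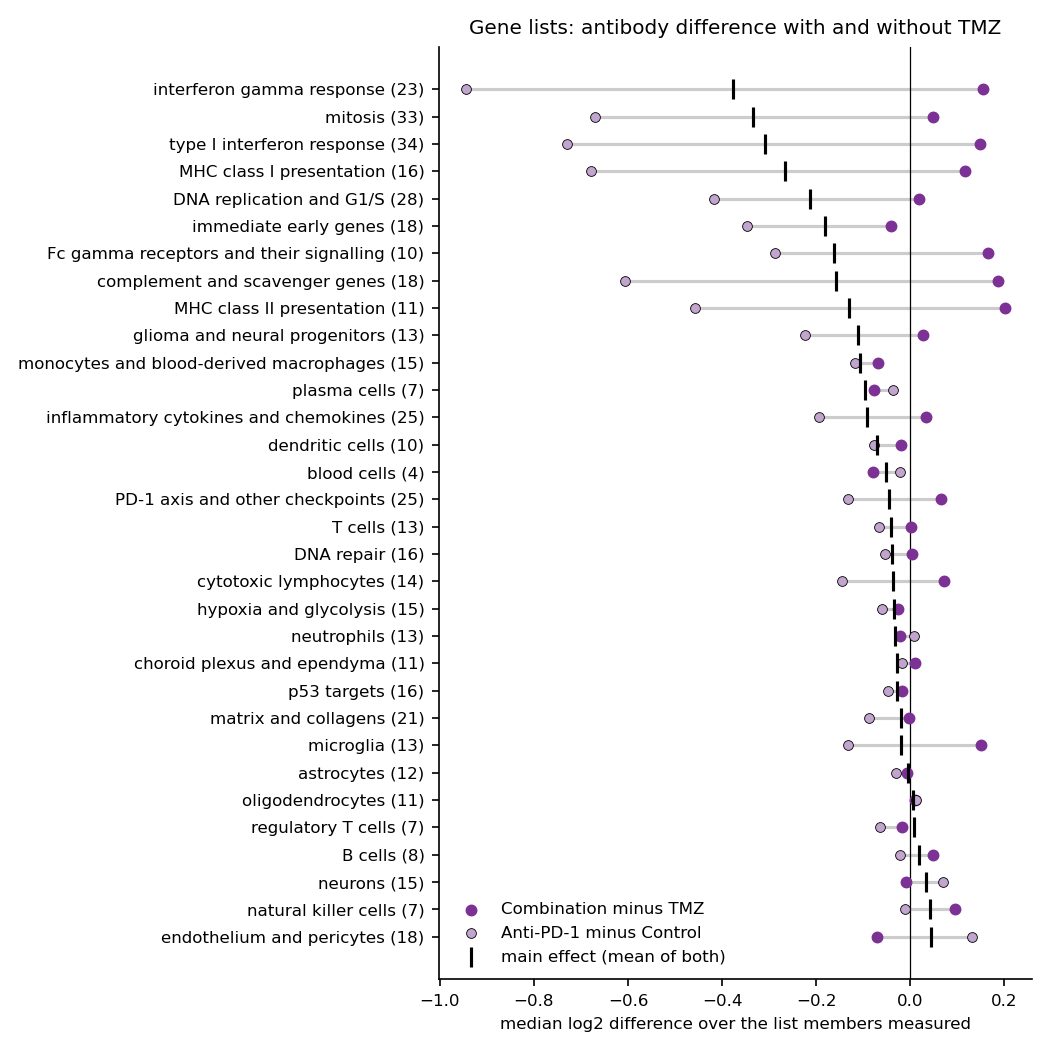
Median log2 difference (x axis) over the measured members of each of 32 gene lists (y axis, number measured in brackets): dark points are Combination minus TMZ, light points Anti-PD-1 minus Control, and black ticks the main effect. The 2 points lie on opposite sides of 0 for the interferon lists, MHC presentation and mitosis, and close together for oligodendrocytes and astrocytes. In the lowest row, endothelium and pericytes, they also lie on opposite sides of 0, at -0.07 (dark) and 0.13 (light). TMZ replicate 2 had by far the highest score of this list (0.35).

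Cell division genes were lower on average, and the Control arrays held their highest values. Of 33 mitosis genes 32 were below 0 (median -0.34), the exception being the spindle checkpoint gene Bub1b (0.03), and 24 had an unadjusted p under 0.05 (72.7%, against 8.98% of all genes); 0 passed the adjusted threshold. With TMZ present the median was 0.05, and without TMZ -0.67, where limma called 10 of the 33 (30.3%, against 0.293% of all genes). Ccna2 (probe set 17404821), a cyclin of the S and G2 phases, read 5.17, 5.25 and 5.13 in Combination and 4.86, 4.84 and 4.83 in Anti-PD-1 arrays, against 5.12, 4.83 and 5.20 in TMZ and 6.34, 6.61 and 5.76 in Control arrays. The 3 Control arrays were above the other 9, and the TMZ arrays, from 4.83 to 5.20, spanned most of the range of the antibody arrays, from 4.83 to 5.25. The main effect of Ccna2 was -0.63 ± 0.12 (SE, limma, adjusted p = 0.379), 0.13 with TMZ and -1.39 without it. Mki67, the proliferation antigen gene, gave -0.58 ± 0.14, 0.01 with TMZ and -1.17 without it, and Hmmr, a spindle protein gene, -0.42 ± 0.08, 0.02 and -0.86. For Ccna2, Mki67 and Hmmr the main effects were -0.39, -0.32 and -0.26 without Control replicates 1 and 2.

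DNA replication genes had a median of -0.21 (27 of 28 below 0, all but Tyms), 0.02 with TMZ and -0.42 without it. The replicative helicase genes Mcm10, Mcm4 and Mcm5 gave -0.29, -0.21 and -0.49, and -0.23, -0.15 and -0.24 without Control replicates 1 and 2. Mitosis scores ran from -0.17 to -0.09 in Combination and -0.21 to -0.19 in Anti-PD-1 arrays, against -0.25 to -0.10 in TMZ arrays; Control arrays had 0.62, 0.75 and 0.19. The TMZ main effect of the mitosis list, made from the same 12 arrays, had a median of -0.32, and Anti-PD-1 minus TMZ had a median of -0.02. Without Control replicates 1 and 2 the medians of the mitosis and replication lists were -0.16 and -0.12. The hexamer TTTGAA, called the cell cycle homology region, was found on either strand in 20 of 27 mitosis windows (74.1%), against 17.8% of all genes, and the CCAAT box in 77.8%, against 41.6%. In the 250 bases before the start alone, the hexamer was in 37.0% of mitosis windows and 16.1% of all. Of the named mitosis genes, Hmmr and Cenpe held 5 and 1 CCAAT boxes but 0 copies of the hexamer in these 250 bases. In the whole window Hmmr held 1 copy of it and Cenpe 0. Ect2, the named mitosis gene with the largest difference, carries both motifs in the stretch shown, which is the first of its 2 windows, on the minus strand at chr3:27153879-27154128 of RefSeq's GRCm38.p6, with TTTGAA and 2 CCAAT boxes in capitals.
Ect2: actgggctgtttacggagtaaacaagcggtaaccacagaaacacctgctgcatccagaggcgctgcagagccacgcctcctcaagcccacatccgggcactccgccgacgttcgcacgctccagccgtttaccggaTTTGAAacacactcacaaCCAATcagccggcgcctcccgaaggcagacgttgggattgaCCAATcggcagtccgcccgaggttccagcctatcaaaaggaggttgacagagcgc

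**Figure D5:**
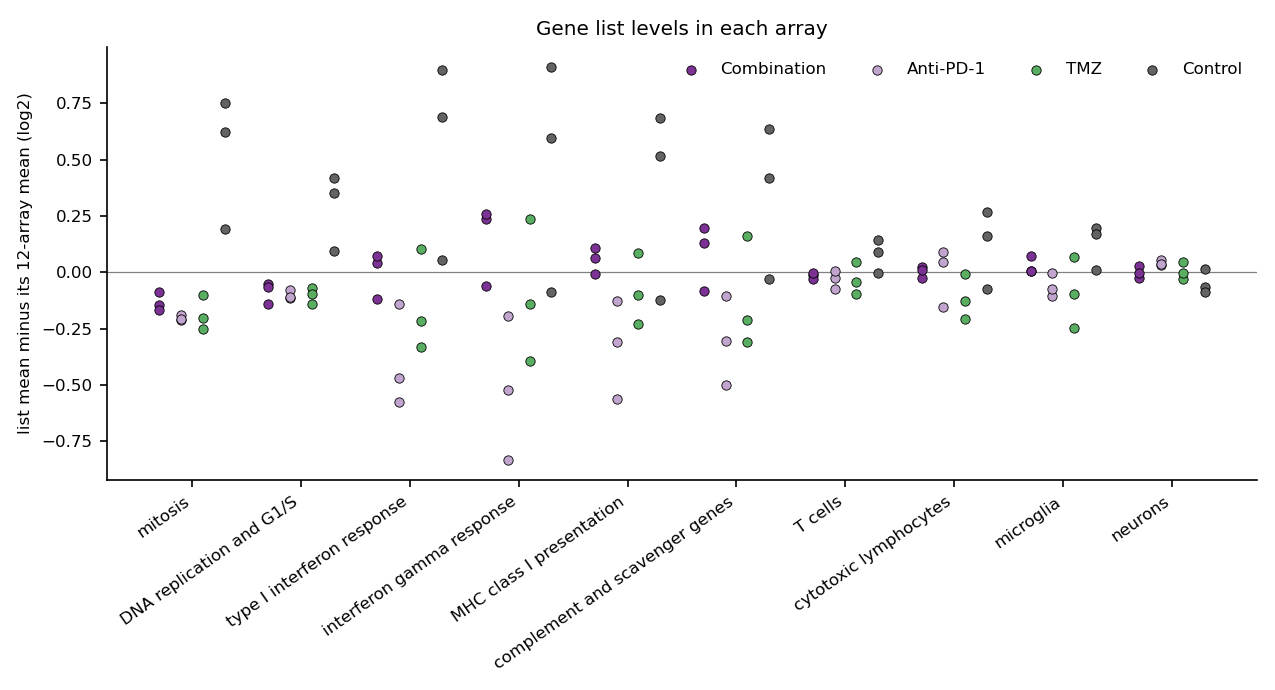
List score of each array (y axis, log2 deviation of a member from its own 12-array mean, averaged over the list) for 10 lists (x axis), with groups in 4 colours. Control replicates 1 and 2 are the 2 highest points in the mitosis (0.62 and 0.75) and type I interferon (0.69 and 0.90) lists, and the spread between arrays is narrow in the T cell and neuron lists.

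Genes of the DNA damage response did not share a direction. Of 16 p53 targets 10 were below 0 and 6 above (median -0.03); beside Cdkn1a, the stress gene Sesn2 was at -0.23 and Pmaip1, a death-promoting gene, at 0.14. DNA repair genes had a median of -0.04, and Mgmt, whose product removes the methyl groups that TMZ adds to guanine, was at -0.03 (95% interval -0.18 to 0.12). The medians of the p53 and repair lists were -0.01 and 0.00 without Control replicates 1 and 2. Immediate early genes, which respond to growth factors within minutes, were below 0 in 17 of 18 (median -0.18), and 6 of them, 33.3%, had an unadjusted p under 0.05, against 8.98% of all genes. This list differed in the same direction at both TMZ states, with medians of -0.04 and -0.35, and its median was -0.16 without Control replicates 1 and 2. Junb read 6.86, 6.76 and 6.67 in Combination and 6.72, 6.74 and 6.79 in Anti-PD-1 arrays, against 6.84, 7.08 and 6.85 in TMZ and 6.99, 7.44 and 7.17 in Control arrays. Only Combination replicate 1 reached into the range of the arrays without the antibody (main effect -0.31 ± 0.08, adjusted p = 0.389). Nr4a1 and Atf3, transcription factor genes of the same kind, gave -0.35 and -0.30.

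Markers of brain cells and vessels had main effect medians from 0.00 to 0.04. Neuron markers were above 0 in 13 of 15 (median 0.03), with scores of -0.03 to 0.03 in Combination and 0.03 to 0.05 in Anti-PD-1 arrays, against -0.03 to 0.05 in TMZ and -0.09 to 0.01 in Control arrays. The neuron score was also added as a covariate. Limma then called 0 genes for the main effect, as it did without the score, so this count cannot show the part of neuron content. An unadjusted p under 0.05 was reached by 1229 genes with the score and 1991 without it. In Anti-PD-1 minus Control the calls went from 65 to 0. The score was lowest in Control replicates 1 and 2 (-0.06 and -0.09), so neuron content and the other traits of these 2 arrays cannot be told apart. Oligodendrocyte and astrocyte lists had medians of 0.01 and 0.00, with the astrocyte filament gene Gfap at -0.25. Endothelial and pericyte markers were above 0 in 14 of 18 (median 0.04), with -0.07 with TMZ and 0.13 without it. Their scores were -0.08, 0.35 and 0.05 in TMZ arrays, against 0.01 to 0.05 in Combination arrays. TMZ replicate 2 was thus far above the rest, and how far the -0.07 rests on it was not tested. Glioma and progenitor genes were below 0 in 11 of 13 (median -0.11), and 4 of them, 30.8%, had an unadjusted p under 0.05, against 8.98% of all genes; beside Nes, the filament gene Vim was at -0.50 and the growth gene Myc at -0.30. In Vim and Myc, Control replicates 1 and 2 were again the highest arrays, at 9.79 and 10.06 and at 6.95 and 7.03, and without them the differences were -0.25 and -0.19. Hypoxia, matrix, ependyma and blood cell lists had medians between -0.05 and -0.02. Without Control replicates 1 and 2 the neuron, oligodendrocyte, astrocyte and endothelial medians were 0.00, 0.05, -0.01 and 0.05, the glioma median -0.03, and the hypoxia, matrix, ependyma and blood cell medians -0.02, -0.02, 0.00 and -0.11.

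Taken by TMZ state, the antibody difference was called in 65 genes without TMZ and in none with it. For Anti-PD-1 minus Control limma called 65 genes (0.293%), 18 higher (0.0812%) and 47 lower (0.212%); for Combination minus TMZ it called 0 (0%), and 930 genes (4.19%) had an unadjusted p under 0.05. Of the 47 lower genes, 37 (78.7%) were above 0 in Combination minus TMZ, where their median was 0.06, against a median of -0.98 in Anti-PD-1 minus Control. Of the 18 higher genes, 10 (55.6%) were below 0 there. Over all genes the sign differed between the 2 states in 50.0%, and across genes, which are not independent replicates, the 2 differences had a Pearson correlation of -0.12 and a Spearman correlation of -0.01. Of the 32 lists, 18 had a median below 0 without TMZ and above 0 with it. The calls without TMZ included 10 of 33 mitosis genes (30.3%), 3 of 34 type I interferon genes (8.82%) and 2 of 28 replication genes (7.14%), against 0.293% of all genes. The checkpoint, interferon gamma, matrix, monocyte, endothelial and glioma lists held 1 call each, and the remaining lists 0. Without Control replicates 1 and 2, a fit in which the lone Control array is assumed to vary like the other groups, limma called 0 genes in Anti-PD-1 minus Control and 0 in the main effect, where 1115 had an unadjusted p under 0.05.

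A test of the difference between the 2 states called 1 of 22180 genes (0.00451%), and 1978 (8.92%) had an unadjusted p under 0.05. The called gene was 3830403N18Rik, named because it was the only call. It read 3.19, 3.02 and 2.95 in Combination and 2.67, 2.66 and 2.72 in Anti-PD-1 arrays, against 2.96, 2.74 and 2.77 in TMZ and 3.96, 3.76 and 3.65 in Control arrays. Its difference was 0.22 with TMZ and -1.11 without it, an interaction of 1.33 ± 0.13 (SE, limma, adjusted p = 0.00909). The call was lost among genes with a mean of at least 5, where this dim gene was not tested, with all probe sets tested, with the neuron score as a covariate, without Control replicates 1 and 2, and without any 1 of TMZ replicate 2, Anti-PD-1 replicate 1 or Anti-PD-1 replicate 2.

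The genes next in order on the higher side were Car6, a secreted carbonic anhydrase, Stx11, a vesicle fusion gene of cytotoxic lymphocytes, Moxd1, a monooxygenase gene, and Ccna2, with interactions of 1.36, 0.62, 3.29 and 1.53 that missed the threshold (limma, adjusted p from 0.113 to 0.137). Moxd1 (probe set 17232215) read 6.31, 7.02 and 6.23 in Combination and 5.70, 6.19 and 6.10 in Anti-PD-1 arrays, against 6.51, 5.79 and 5.73 in TMZ and 8.91, 9.43 and 7.99 in Control arrays. All 3 Control arrays stood above the other 9, and the antibody difference was 0.51 with TMZ and -2.78 without it, averaging -1.13, and -0.74 without Control replicates 1 and 2. Stx11 had a main effect of 0.00 made of 0.31 with TMZ and -0.31 without it. Its 3 Combination arrays (4.53, 4.63 and 4.62) lay above the 3 TMZ arrays (4.28, 4.22 and 4.35), and its 3 Anti-PD-1 arrays (4.45, 4.34 and 4.31) lay below the 3 Control arrays (4.67, 4.72 and 4.64). On the lower side, Atp13a5, an ATPase gene of brain pericytes, Ddit4l, Inca1 and the sodium channel gene Scn9a had interactions of -0.48, -0.48, -0.63 and -0.55 (limma, adjusted p from 0.142 to 0.196).

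The antibody main effect was last set against the TMZ main effect, which equals Anti-PD-1 minus TMZ. Limma called 0 of 22180 genes (0%), and 1000 (4.51%) had an unadjusted p under 0.05. Wfikkn2 again had the smallest p, with a difference of 0.60 ± 0.10 and a TMZ main effect of -0.18, followed on this side by Pou2f3, a transcription factor gene of tuft cells, Nrg3os and the keratin gene Krt6a (0.29, 0.51 and 0.40). On the other side Btbd35f17, Gsdmc2, Hnrnpa1l2-ps2 and Tmem132cos gave -0.52, -0.49, -0.44 and -0.36. None of these 8 passed the threshold (limma, adjusted p = 1.0).

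The number of main effect calls changed when 1 Control array, replicate 3, was left out, whereas the effect sizes of many genes above shrank without Control replicates 1 and 2. Without Control replicate 3 limma called 60 of 22180 genes, 7 higher and 53 lower, and without any other 1 array it called 0. The Control group of that fit is replicates 1 and 2, the 2 arrays that stood apart on the first principal component. Against 60 of all 22180 genes, the calls held 12 of the 33 mitosis genes and 4 of the 34 type I interferon genes (Bst2, Ifi35, Ifitm3 and Parp12). They also held 2 of the 28 replication genes (Mcm5 and Mcm6) and 0 of the 23 interferon gamma genes. At the share of all genes, a list of that size would mostly hold none. Of the 60, 30 were also called in Anti-PD-1 minus Control with all arrays, against 0.293% of all genes, but the 2 comparisons share arrays. In 31 of the 60 the difference had the same sign at both TMZ states, near the share of all genes, of which 50.0% had opposite signs. Of the genes named for the main effect, Ect2, Tacc3, Cenpe, Nes, Card6, Zfp932 and Zfp938 were among the 60, with Cdkn1a and Mki67 of the genes always reported. Wfikkn2 and Dpep2 were not (adjusted p = 0.056 and 0.101 in that fit).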

How the data were processed

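Total RNA of the masses was measured on 12 Affymetrix arrays, 3 in each of 4 groups taken from the sample titles. The authors deposited 1 log2 signal per array for each of 41345 probe sets, computed with RMA in the Affymetrix Expression Console, per the submitters' processing notes. The build and the tool versions are not given in the sources used here. RMA includes background correction and quantile normalisation across arrays, so a shift shared by most genes of an array would not appear. Values ran from 1.24 to 13.14, array medians from 5.06 to 5.12, and pairwise correlations from 0.984 to 0.991. The precision is limited by the number of arrays.

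The array annotation gave 1 symbol to 23521 probe sets, several to 1814 and none to 16010. Where a gene had several probe sets, the one with the highest 12-array mean was kept, which left 22180 genes without a filter on dim ones. Limma 3.58.1 in R 4.3.3 fitted a mean per group over all 12 arrays (8 residual degrees of freedom; eBayes). Tests were two-sided, with Benjamini-Hochberg adjustment over all genes and a threshold of 0.05. The script was tested on simulated data. Alternatives were a replicate block, a variance trend, array weights, a mean filter of 5 log2, all probe sets, the mean of a gene's probe sets, a neuron covariate, the additive model, only the groups compared, and each array left out.

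The named genes were those with the 10 smallest p in each direction and the same sign at both TMZ states, 4 in each direction for the interaction and for Anti-PD-1 minus TMZ, the 4 members of a list with the smallest p, and a panel always reported. Of the list genes, 48 were not analysed here. The comparison, the 32 lists (494 genes measured of 542) and the tests were chosen with earlier results of these data known.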

Additional observations from a re-analysis of the deposited data

Results flagged for a closer look

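In 130 sets of 6 arrays, the highest or lowest array was compared with the rest, and 7 sets held an array set apart by a gap over 0.625 of the range. Chance gives about 1 in 20 such sets. Ada read 4.40 in Anti-PD-1 replicate 1, against 4.03 to 4.16 in the other antibody arrays. Tacc3 read 5.75 in Combination replicate 2 (others 5.52 to 5.57), and P2ry12 7.77 in Combination replicate 3 (others 7.53 to 7.60). Prf1 read 5.28 in TMZ replicate 3, against 5.62 to 5.80 in the other arrays without the antibody. Among the list scores, immediate early genes stood at 0.16 in Combination replicate 1 (others -0.20 to -0.10), regulatory T cells at 0.10 in TMZ replicate 1 (others -0.01 to 0.03), and blood cells at 0.54 in TMZ replicate 2 (others -0.16 to -0.01).

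The antibody difference of 3830403N18Rik was 0.22 with TMZ and -1.11 without it, and the test of their difference gave an interaction of 1.33 (limma, adjusted p = 0.00909).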

How the results depend on the processing

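The main effect called 0 genes under every alternative except without Control replicate 3, so that leaving out 1 array gave 0 to 60 genes. Combination minus TMZ and Anti-PD-1 minus TMZ called 0 under every alternative. The interaction called 1 gene, and 12 with a variance trend, 0 among genes with a mean of at least 5, 0 with all probe sets, 0 with the neuron covariate, 0 without Control replicates 1 and 2 (chosen after seeing the data) and 0 to 198 with 1 array left out. Anti-PD-1 minus Control called 65 genes, and 20 with the replicate block, 381 with a variance trend, 260 with array weights, 148 with the mean filter, 2 with all probe sets, 0 with the neuron covariate, 0 with only the groups compared, 0 without Control replicates 1 and 2, and 1 to 686 with 1 array left out. The highest counts, 198 and 686, were without Control replicate 3; the causes were not tested. Replicate numbers did not pair the arrays: same-numbered arrays had correlations of -0.16 to 0.16 over 18 pairs, 4 of 12 arrays correlated best with their own number, and the block left 0 calls in the main effect and 1 in the interaction.

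For the genes named for the main effect and the panel always reported, 653 values under the alternatives kept their sign and their side of the threshold. Of the other values of these genes, 9 passed it and 13 changed sign. Genes named only as list members or for another comparison are not in these counts. Among those, Bst2 and Ccna2 with others passed the threshold without Control replicate 3, and the sign of Fcgr4 with others turned. The sign of Cd274 turned with the neuron covariate (0.10), without Control replicates 1 and 2 (0.15) and in 4 fits with 1 array left out (-0.17 to 0.066). Cd4 turned with the covariate (0.013) and in 2 such fits (-0.091 to 0.032), and Gzmb turned with the covariate (0.15) and without Control replicates 1 and 2 (0.095). Mgmt and Pdcd1 each turned in 1 such fit (-0.068 to 0.019 and -0.15 to 0.0091). With 3 arrays in a group, differences smaller than the intervals given are not detectable here.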
